A study of Salmo salar with 31 samples.

Results

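Skin of Atlantic salmon reared for 4 months in an open net-pen after seawater transfer (net-pen 4M, 6 fish) was compared with skin of smolts in freshwater (7 fish). These 13 arrays were chosen by the sample titles from a set of 31, one per fish, and all 14841 features that are not controls were considered. The other 18 arrays hold 6 fish each from the same net-pen after 1 month (net-pen 1M) and from a semi-closed containment system (S-CCS) after 1 or 4 months, and they entered the fit that estimates the spread between fish. All fish came from one commercial stock, brought to smoltification by a short and then a continuous day length, and smolts were sampled before the stock was split between the systems. Each system was a single enclosure, so the p-values rest on the spread between fish within groups, pooled over the 5 groups, and not on one between enclosures. Time, age, body size, season, temperature, salinity and site changed together between smolts and net-pen 4M and cannot be told apart.

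Smoltification prepares a salmon that lives in freshwater for life in the sea. The skin is a living barrier: an epidermis of keratinocytes and mucous cells faces the water, and beneath it lie scales and a dermis rich in collagen, with blood vessels, pigment cells and resident immune cells. After transfer the fish must hold back water that the saltier environment draws out, and mucus and epithelium also keep out microbes and parasites. The arrays measured RNA of whole skin, in which fewer cells of a type and less RNA per cell cannot be told apart.

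The scanner files name each feature by a probe ID and do not pair it with a gene. Of the IDs, 0 matched one of the 65341 genes in the RefSeq table at hand. Gene groups and cell type markers could therefore not be read, and the labelled tissue could not be checked against its markers. The ID alone is given for 4 features, the one with the largest difference and the one with the largest moderated statistic in each direction, and all others are given by rank.

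The arrays of both groups were close in the share of features well above background and less close in brightness. The median ratio of signal to background ran from 5.86 to 7.75 on net-pen 4M arrays. On smolt arrays it ran from 4.4, in smolt 1, to 6.90. Features well above background made up between 89.7% and 95.8% of the features of a net-pen 4M array (median 93.5%) and between 86.6% and 92.4% of a smolt array (median 91.8%), and no spot was saturated. The scanner software had divided the signal by a spatial trend on 4 of 6 net-pen 4M arrays and on 0 of 7 smolt arrays. The arrays lay on 10 slides, and slide 7 alone held both groups, with 2 fish of each.

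Of the 14841 features, 669 that were dim in every group were left out and 14172 were tested. Between freshwater and 4 months in the net-pen, 1317 of these 14172 (9.29%) differed by the criteria used in the study, an unadjusted p under 0.05 and an expression ratio on the log2 scale (log2-ER) beyond 0.8 in either direction. Of these, 775 (5.47%) were higher and 542 (3.82%) were lower in net-pen 4M. After Benjamini-Hochberg adjustment of the limma p over all features, 2704 (19.1%) passed at 0.05, of which 1379 (9.73%) were higher and 1325 (9.35%) lower. The median log2-ER over all features was -0.01.

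The lists given by these 2 rules differed in size and content. Of the 1317 features, 1099 also had an adjusted p under 0.05 and 218 did not. Another 1605 features passed the adjusted test with a log2-ER within 0.8 of 0. At the edge of the criteria, one feature with a log2-ER of -0.800 (SE 0.112) was counted and one with a log2-ER of -0.799 (SE 0.190) was not, although the adjusted p of both was under 0.05.

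The balance of higher and lower features differed between scalings. With scaling to the 75th percentile 1274 features were higher and 368 lower by the criteria, without lowess 1025 were higher and 483 lower, and with quantile normalization 742 were higher and 585 lower. Normexp background correction, in which the median signal and an offset of 50 also replaced the processed signal, gave 296 higher and 323 lower. By adjusted p the 75th percentile gave 1965 higher and 935 lower. That scaling moved the median log2-ER of all features to 0.14, against 0.05 without lowess.

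Most differences were modest, with a tail of large ones. Among features with an adjusted p under 0.05, 467 were more than 2-fold higher and 257 more than 2-fold lower in net-pen 4M. More than 4-fold differences were found for 87 higher and 41 lower features, more than 8-fold for 25 and 10, and more than 16-fold for 6 and 2.

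**Figure D1:**
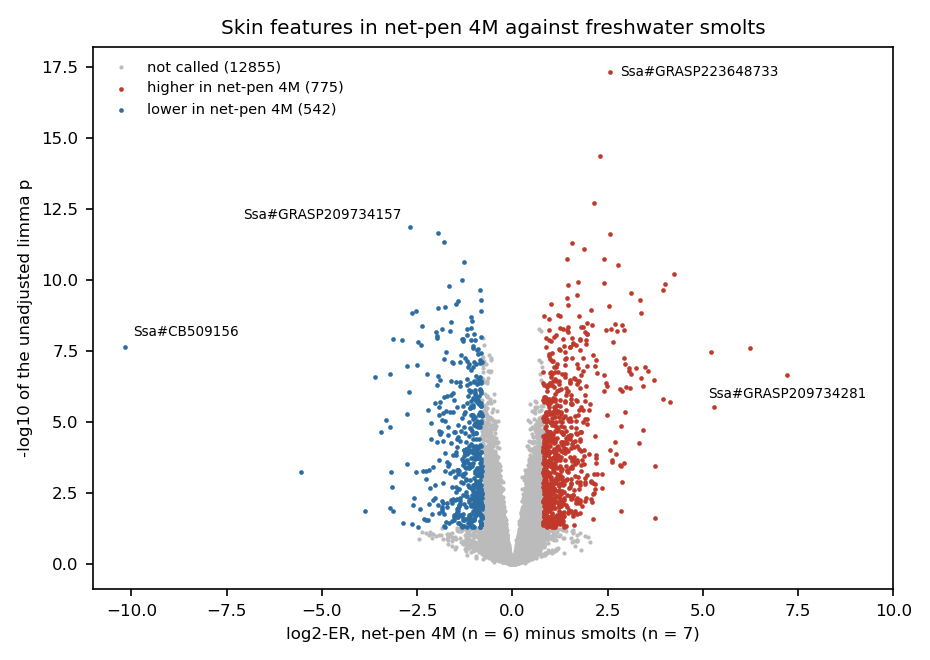
Each point is 1 of 14172 features, with the log2-ER of net-pen 4M (6 fish) minus smolts (7 fish) on the horizontal axis and the -log10 of the unadjusted limma p on the vertical axis. The 775 higher and 542 lower features are coloured, and Ssa#CB509156 lies far from all others on the lower side at -10.18.

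The groups did not overlap at 901 features (6.36%), of which 446 had every net-pen 4M fish above every smolt and 455 had every net-pen 4M fish below. Of the 901, 505 also had an adjusted p under 0.05 and a log2-ER beyond 0.8, with 307 higher and 198 lower. The features described below as ranked by log2-ER are the 10 highest and 10 lowest of these 505.

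The feature that was lower by the widest margin in net-pen 4M was Ssa#CB509156. Its normalised signal, the array intensity in arbitrary units after scaling and lowess, was 47.0, 25.0, 19.4, 500, 23.3 and 91.3 in net-pen 4M fish 1, 2, 6, 7, 11 and 12. In smolts 1, 2, 3, 6, 7, 11 and 12 it was 144161, 41465, 17106, 64586, 55761, 107243 and 92124. Every smolt was therefore above every net-pen 4M fish by a wide gap, although signals within each group also ranged widely. The log2-ER was -10.18 (SE 1.33; limma adjusted p = 2.9e-06).

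The low signal of Ssa#CB509156 was shared by the other groups in seawater, with one exception. Net-pen 4M had a median of 36.0 and smolts one of 64586. The median was 137 after 1 month in the net-pen, and in the S-CCS it was 27.2 after 1 month and 21.9 after 4 months. One net-pen 1M fish had a signal of 132917, within the range of smolts, while the other 5 fish of that group were low. The difference between net-pen 4M and net-pen 1M was -2.40 (limma adjusted p = 0.29) and that from S-CCS 4M was 0.69 (adjusted p = 0.81).

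The feature that was higher by the widest margin was Ssa#GRASP209734281. Its normalised signal was 3339, 270, 1188, 5620, 2934 and 9983 in net-pen 4M fish 1, 2, 6, 7, 11 and 12. In smolts 1, 2, 3, 6, 7, 11 and 12 it was 202, 5.39, 18.0, 17.1, 9.25, 7.28 and 11.9. Smolt 1 was high for its group and net-pen 4M fish 2 low for its own, and these 2 fish bounded a narrow gap between the groups. The log2-ER was 7.21 (SE 1.07; limma adjusted p = 1.6e-05).

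This feature was high at 4 months in both systems, and at 1 month most fish were low. Fish from the S-CCS had a median of 3076 after 4 months and 7.76 after 1 month, with log2-ER to smolts of 7.21 (limma adjusted p = 1.6e-05) and -0.32 (adjusted p = 0.91). Net-pen fish after 1 month had a median of 28.0 and a log2-ER of 1.29 (adjusted p = 0.43). Among fish at 1 month, net-pen fish 6 and 12 were at 713 and 218 and S-CCS fish 1 at 148, and the highest of these exceeded net-pen 4M fish 2. Net-pen 4M exceeded net-pen 1M by 5.92 (adjusted p = 0.0011).

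The most precisely separated feature was Ssa#GRASP223648733, which was bright in every group. Its normalised signal was 52567, 45737, 68216, 54966, 53822 and 81215 in net-pen 4M fish 1, 2, 6, 7, 11 and 12. In smolts 1, 2, 3, 6, 7, 11 and 12 it was 9013, 10089, 8561, 11729, 7894, 11166 and 11114. On the log2 scale neither group spread by as much as the gap between them, and the log2-ER was 2.57 (SE 0.13; limma adjusted p = 6.8e-14).

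Most of this rise was present after 1 month, with log2-ER to smolts of 2.40 for the net-pen and 1.60 for the S-CCS. S-CCS 4M stood at 2.13, and net-pen 4M exceeded it by 0.43 (limma adjusted p = 0.048), a difference that lost this threshold in 17 of 28 alternatives, with values from 0.17 to 0.56. From net-pen 1M it differed by 0.16 (adjusted p = 0.49).

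In the lower direction the largest statistic was that of Ssa#GRASP209734157. Its normalised signal was 492, 574, 487, 288, 939 and 588 in net-pen 4M fish 1, 2, 6, 7, 11 and 12. In smolts 1, 2, 3, 6, 7, 11 and 12 it was 2603, 4401, 3217, 4145, 3889, 4563 and 1887. The lowest smolt, fish 12, was still above the highest net-pen 4M fish, and the log2-ER was -2.68 (SE 0.23; limma adjusted p = 5.0e-09).

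Net-pen 4M had the lowest mean level of Ssa#GRASP209734157 among the 5 groups. Its log2-ER to smolts was -1.79 after 1 month in the net-pen, and the S-CCS stood at -1.09 after 1 month and -1.50 after 4 months. Net-pen 4M was below net-pen 1M by a log2 difference of -0.89 (limma adjusted p = 0.017) and below S-CCS 4M by one of -1.18 (adjusted p = 0.0040).

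**Figure D2:**
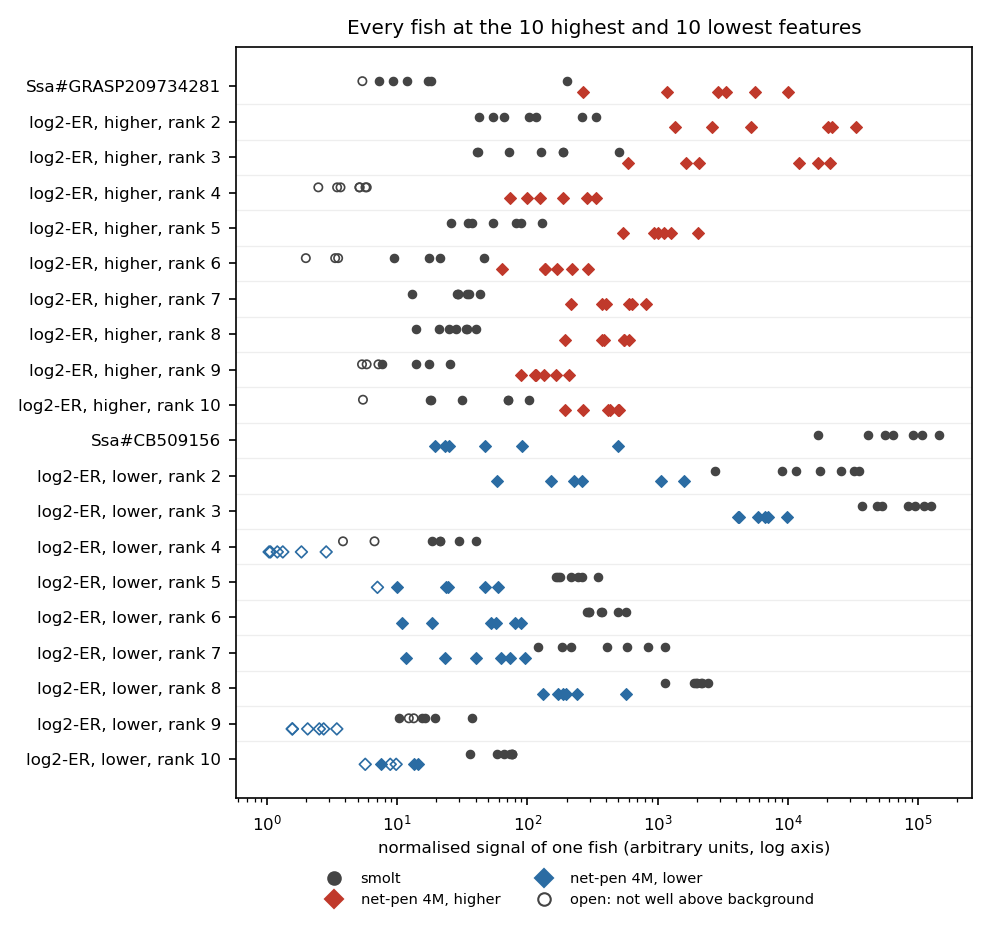
Normalised signal of every fish (log axis, arbitrary units) at the 10 highest and 10 lowest features by log2-ER, with smolts as circles, net-pen 4M as diamonds and open symbols where the spot was not well above background. No net-pen 4M fish overlaps a smolt at any of these features, and the gap is widest for Ssa#CB509156 and small for Ssa#GRASP209734281.

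The other 9 of the 10 highest features had log2-ER between 3.55 and 6.24. The second and the third of them, with log2-ER of 6.24 (SE 0.82) and 5.30 (SE 0.91), ranged in net-pen 4M from 1352 to 33397 (median 12905) and from 596 to 21248 (median 7099). In smolts they ranged from 42.5 to 336 (median 102) and from 41.0 to 509 (median 126). At both, net-pen 4M fish 1, 2 and 12 were low and fish 6, 7 and 11 high, and no fish overlapped a smolt.

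Some pairs of these features moved together from fish to fish. Over all 528 pairs of the 33 chosen features r ranged from -0.70 to 0.99, with a median of 0.03. With group means taken off, the second and the third highest features correlated over the 31 arrays with r = 0.98, the seventh and the eighth with r = 0.98, and the fourth and the ninth with r = 0.89. Among the lowest, the fifth and the sixth, a salmon and a rainbow trout probe by their prefixes, correlated with r = 0.99, and the third and the eighth with r = 0.80. The points share arrays and scaling, and probes of one transcript cannot be told from probes of different ones.

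The fourth highest feature was well above background on 6 of 6 net-pen 4M arrays and on 0 of 7 smolt arrays. It ranged from 73.5 to 334 in net-pen 4M (median 156) and from 2.47 to 5.83 in smolts (median 5.12). An approximate bound, against the lowest signal well above background on each smolt array, put it at 19.0-fold higher. Its measured log2-ER was 5.21 (limma adjusted p = 4.1e-06), which became 1.5 with normexp and its offset.

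Signals that were well above background in all net-pen 4M fish and in no smolt were found at 12 of the 14172 features, and signals of the opposite kind at 0. These 12 passed the filter through the groups in seawater. Of them, 9 had a limma adjusted p under 0.05, where 19.1% of all features did, and 6 a bound over 2-fold. The choice by detection on the same 13 arrays favours both, so these 2 counts are a description. Net-pen 4M arrays also had more features well above background in general, with a median of 93.5% against 91.8% in smolts. Among the 1317 called features, 34 had no smolt array and 9 no net-pen 4M array well above background. On all 13 arrays 1032 (78.4%) of the called features were well above background, against 12336 of all 14172 tested. For the counts of 34 and 9 the shares over all features were not computed.

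Among the 10 highest features, the fifth and the sixth were the ones that exceeded both net-pen 1M and S-CCS 4M at a limma adjusted p under 0.05. With slide as a fixed block, 0 of the 33 chosen features differed from S-CCS 4M. The fifth ranged from 539 to 2034 in net-pen 4M (median 1063), from 26.0 to 129 in smolts (median 54.4), from 38.1 to 275 in net-pen 1M and from 164 to 837 in S-CCS 4M. Its log2-ER was 4.25 (SE 0.42; limma adjusted p = 6.3e-08), and it exceeded net-pen 1M by 3.95 (adjusted p = 2.1e-06) and S-CCS 4M by 1.63 (adjusted p = 0.023). The groups at 1 month overlapped smolts at this feature, and S-CCS 4M lay above smolts and overlapped net-pen 4M.

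The sixth ranged from 63.3 to 290 in net-pen 4M (median 153), from 1.98 to 46.2 in smolts (median 9.47) and from 8.17 to 39.5 in S-CCS 4M (median 21.2). Its log2-ER was 4.13 (SE 0.69; limma adjusted p = 8.1e-05), with 4 of 7 smolt arrays well above background. Smolts 1, 2 and 3, at 1.98, 3.33 and 3.51, were not. Over 29 alternatives the log2-ER of this feature ranged from 1.47 to 4.59, and its difference from net-pen 1M ranged from 1.73 to 4.71 over 25. It exceeded net-pen 1M by 4.42 (adjusted p = 0.00028) and S-CCS 4M by 2.96 (adjusted p = 0.014). All net-pen 4M fish were above all fish of S-CCS 4M. S-CCS 1M ranged from 4.69 to 80.6 (median 21.2) and overlapped net-pen 4M, and the difference between these 2 groups was not tested.

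The other 9 of the 10 lowest features had log2-ER between -2.77 and -5.56. The second ranged from 58.4 to 1596 in net-pen 4M (median 247) and from 2742 to 35049 in smolts (median 17739), with a log2-ER of -5.56 (SE 1.44; limma adjusted p = 0.0061). The third was bright in both groups, from 4124 to 9791 in net-pen 4M (median 6298) and from 37170 to 126245 in smolts (median 83457), with a log2-ER of -3.60 (SE 0.54; adjusted p = 1.8e-05). Both lay below smolts in every net-pen 4M fish.

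The fourth and the ninth lowest features were at the limit of detection on the net-pen 4M arrays. In 0 of 6 net-pen 4M arrays and 5 of 7 smolt arrays was either well above background, and by the bound they were 2.80-fold and 2.88-fold lower. Their measured log2-ER of -3.46 and -2.89 rest on net-pen 4M signals below that limit, and with normexp, which adds an offset of 50 to each signal, they were -0.31 and -0.25. The bound holds for the scaling used here only. It is approximate, since a spot can be brighter than the lowest one well above background on its array and not be well above background itself.

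The fifth and the sixth lowest features were lower in net-pen 4M than in S-CCS 4M, and less firmly lower than in net-pen 1M. The fifth ranged from 7.04 to 59.9 in net-pen 4M (median 24.1) and from 166 to 349 in smolts (median 215), with a log2-ER of -3.32 (SE 0.61; limma adjusted p = 0.00026). It differed from net-pen 1M by -2.04 (adjusted p = 0.045) and from S-CCS 4M by -2.24 (adjusted p = 0.030). For the sixth these differences were -2.02 (adjusted p = 0.049) and -2.24 (adjusted p = 0.031). The differences from net-pen 1M lost an adjusted p under 0.05 in 14 of 25 alternatives for the fifth and in 16 of 26 for the sixth, and those from S-CCS 4M in 5 of 27 and 6 of 28.

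The seventh lowest feature was lower at 4 months in both systems. It ranged from 11.6 to 95.8 in net-pen 4M (median 51.5), from 120 to 1131 in smolts (median 405), from 66.8 to 1262 in net-pen 1M (median 497) and from 5.06 to 139 in S-CCS 4M (median 20.8). Net-pen 4M was below net-pen 1M by a log2 difference of -3.18 (limma adjusted p = 0.020) and differed from S-CCS 4M by 0.75 (adjusted p = 0.64). Net-pen 1M and smolts overlapped over most of their ranges. S-CCS 1M ranged from 29.3 to 590 (median 210) and overlapped both net-pen 4M and smolts. Its log2-ER to smolts was -1.44 (limma adjusted p = 0.36).

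Features with the largest statistics were less extreme and more uniform than those with the largest log2-ER. The 5 higher ones had log2-ER between 1.56 and 2.58 and SE between 0.13 and 0.22, and the 5 lower ones log2-ER between -1.27 and -2.68 and SE between 0.12 and 0.23. The fourth of the higher ones, at 2.58, was dim in smolts and well above background on 2 of 7 smolt arrays. Its log2-ER ranged from 0.60 to 3.10 over 29 alternatives. At the second of the higher ones the range was 397 to 693 in net-pen 4M (median 440) and 80.5 to 112 in smolts (median 94.1), with a log2-ER of 2.31 (SE 0.15; limma adjusted p = 3.1e-11). It exceeded net-pen 1M by 0.86 (adjusted p = 0.00096) and S-CCS 4M by 0.99 (adjusted p = 0.00055), and no net-pen 4M fish overlapped a fish of another group.

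The second of the lower ones ranged from 48.8 to 108 in net-pen 4M (median 54.1), from 222 to 306 in smolts (median 250) and from 170 to 352 in S-CCS 1M (median 246). Its log2-ER was -1.95 in net-pen 4M (SE 0.17; limma adjusted p = 5.8e-09) and 0.01 in S-CCS 1M (adjusted p = 0.99). S-CCS 1M thus lay over the smolts, and net-pen 4M lay below both.

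**Figure D3:**
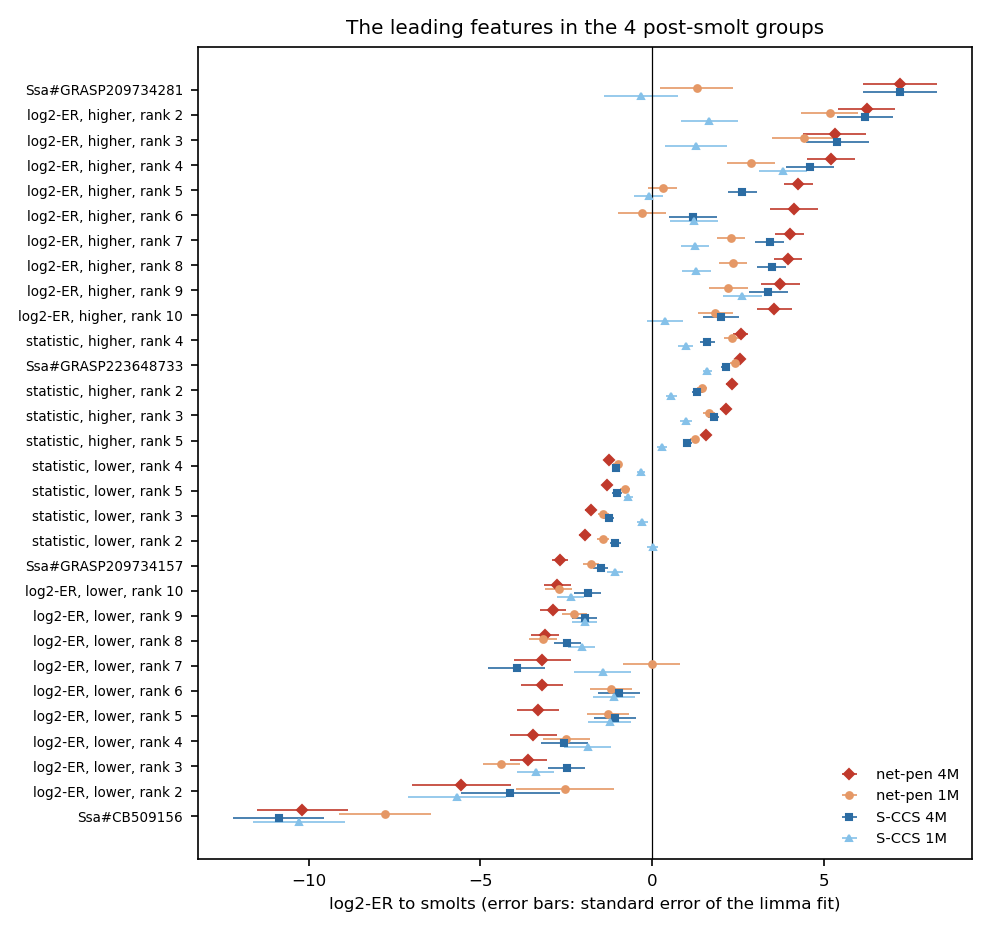
Log2-ER to smolts of the 4 groups in seawater, with the standard error of the limma fit as bars, at the 10 highest and 10 lowest features by log2-ER and the 5 with the largest statistic in each direction. Net-pen 4M and S-CCS 4M lie together at 7.21 for Ssa#GRASP209734281, far from both groups at 1 month, whereas all groups lie at -7.77 or lower for Ssa#CB509156.

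Over the whole lists, the other groups in seawater lay on the same side of smolts as net-pen 4M but nearer to them. The lists were chosen on the net-pen 4M fish and all comparisons share the smolts, so these values are a description. Groups that were not used for the choice can fall nearer to smolts for that reason alone. For the 775 higher features the median log2-ER was 1.17 after 4 months in the net-pen and 0.60 after 1 month, and for the S-CCS it was 0.81 after 4 months and 0.50 after 1 month. For the 542 lower features the medians were -1.09, -0.68, -0.80 and -0.50 in the same order. Counted over all features, S-CCS 4M differed from smolts more often than net-pen 4M did. By the criteria S-CCS 4M reached 1595 features against 1317, and by limma adjusted p under 0.05 it reached 3493 against 2704. After 1 month these counts were 1194 and 2653 for the net-pen, and 724 and 643 for the S-CCS.

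Net-pen 4M differed from net-pen 1M with an adjusted p under 0.05 at 1107 features (7.81%) and from S-CCS 4M at 1123 (7.92%). Of the 775 higher features, 249 (32.1%) were farther from smolts in net-pen 4M than in net-pen 1M by that test, and 134 (17.3%) farther than in S-CCS 4M. Of the 542 lower features the numbers were 84 (15.5%) and 77 (14.2%). Nearer to smolts than in net-pen 1M were 4 of the higher and 15 of the lower features, and nearer than in S-CCS 4M were 4 and 1. Both lists were chosen on the same net-pen 4M fish, which favours the farther side, so these shares are a description. Net-pen 4M shared no slide with net-pen 1M or S-CCS 4M. Net-pen 1M had slides of its own, so its difference from net-pen 4M and a difference between slides cannot be told apart. With slide as a fixed block, 0 of the 33 features chosen by rank differed from S-CCS 4M, against 11 without a block over all 31 arrays and 5 without a block over the same 23 arrays.

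Features also differed in how evenly they changed among the 6 fish. The feature with the largest spread in net-pen 4M was split in the group: fish 6, 7 and 11 were at 1.86, 5.05 and 5.62, and fish 1, 2 and 12 at 224, 109 and 133. Smolts ranged from 118 to 278, so 3 of the 6 fish lay at or near the level of smolts. One net-pen 1M fish was at 3.32 while the others of that group lay at 124 or above. The log2-ER was -3.16 (SE 0.93; limma adjusted p = 0.016), and without net-pen 4M fish 6 it was -2.43 (adjusted p = 0.059).

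The second ranged from 108 in net-pen 4M fish 12 to 31500 in fish 2, against 87.6 to 411 in smolts, with a log2-ER of 2.87 (SE 0.80; limma adjusted p = 0.011). Without the arrays of slide 7 it was 1.44 (adjusted p = 0.17). Fish 12 overlapped the smolts and the other 5 fish lay above them. The third was at 4.42 in net-pen 4M fish 7 and between 142 and 301 in the other 5, against 250 to 568 in smolts. Its log2-ER was -1.72 (adjusted p = 0.039), and without fish 7 it was -0.80 (adjusted p = 0.055). Leaving out smolt 1, 7 or 12 also lost the call, with log2-ER of -1.61, -1.63 and -1.64 (adjusted p between 0.063 and 0.072). A low signal in fish 7 thus carried most of that value. With only the 13 arrays in the fit, all 3 features with the largest spread lost the call (limma adjusted p = 0.053, 0.071 and 0.18).

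Over the 1317 called features each fish lay beyond all fish of the other group at between 68.4% and 88.1% of them. These features were called on the same 13 fish, so high shares follow from the choice. The share of each fish over all features was not computed. In net-pen 4M the share was lowest in fish 2 (68.4%) and fish 1 (68.9%) and highest in fish 11 (79.7%). In smolts it was lowest in fish 12 (68.4%) and highest in fish 2 (88.1%). Smolt 12 was the smolt nearest to net-pen 4M at 248 of the 775 higher features, and smolt 1 at 200 of the 542 lower ones. Smolt 1 also deviated more from its own group than any other of the 13 fish, by a median of 0.45 on the log2 scale over all features, against between 0.16 and 0.33 in the others. Its array was also the dimmest of the 13, and whether this bears on the deviation was not tested.

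**Figure D4:**
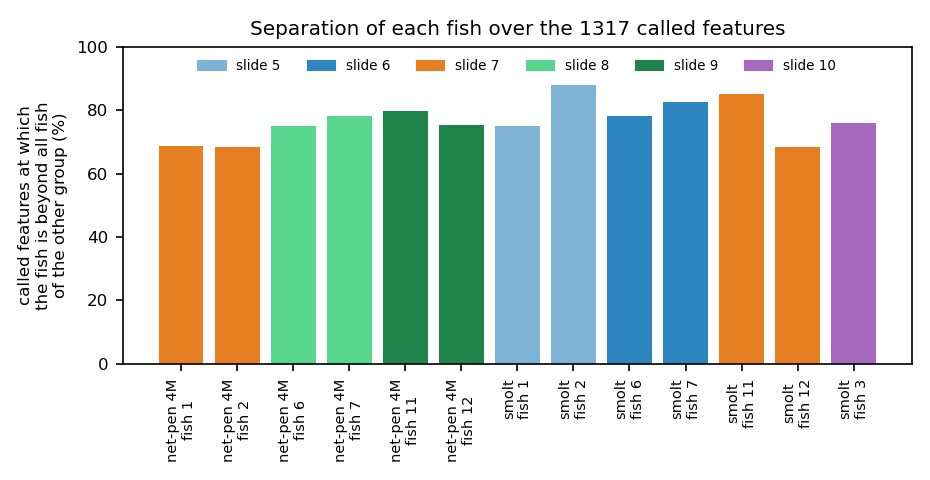
Share of the 1317 called features (%) at which a fish lies beyond all fish of the other group, one bar per fish, coloured by slide. The features were called on these same fish, so high shares follow from the choice. All bars lie between 68.4% and 88.1%, and 3 of the 4 fish on slide 7, the only slide with both groups, have the lowest values.

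Slide 7 gave a comparison within one slide, with 2 net-pen 4M fish and 2 smolts. Without its arrays 1728 features were called by the criteria, and 1355 of them (78.4%) had the same sign in the 4 fish of slide 7, against 61.8% of all features. Their median log2-ER was 1.16 in the direction of the call on the other slides and 0.54 within slide 7. The choice was made by size on the other slides, and fish not used for it can show smaller values for that reason alone. For the features ranked by log2-ER the sign within slide 7 was fixed by the choice, since no fish overlapped, and only the sizes are a description. They were -11.50 for Ssa#CB509156 against -9.58 on the other slides, and 6.67 against 7.56 for Ssa#GRASP209734281. The third highest feature stood at 2.54 within slide 7 and 6.61 on the other slides. Of the 3 features with the largest spread, the first stood at -0.17 against -4.63 and the second at 5.69 against 1.44. The third stood at -0.73 against -2.22. These 3 were chosen for their spread among the same net-pen 4M fish.

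With slide as a fixed block, 685 features passed at an adjusted p under 0.05, in place of 2704, and 642 were common to both. The same 23 arrays without the block gave 2708. By the criteria the block gave 1039 features in place of 1317, with 728 in common. With slide as a random block the counts were 2807 by adjusted p, 2693 of them in common, and 1340 by the criteria, and all 33 chosen features kept an adjusted p under 0.05. Of the 33 chosen features, 8 lost an adjusted p under 0.05 with the fixed block, namely the second, the fourth, the fifth, the sixth and the seventh lowest, the sixth highest, and the first and the third by spread described above. The log2-ER stayed near its value for the sixth highest (3.78) and for the fifth, the sixth and the seventh lowest (-3.24, -3.13 and -3.07), and moved nearer to 0 for the second and the fourth lowest (-3.44 and -2.48) and for the 2 features with a large spread (-1.71 and -0.87).

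The software's spatial correction also differed between the groups. Without the 4 corrected net-pen 4M arrays, 1533 features had an adjusted p under 0.05 and 1674 met the criteria, with 2 net-pen 4M fish left. With the correction undone and all fish kept, these counts were 3267 and 1302.

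**Figure D5:**
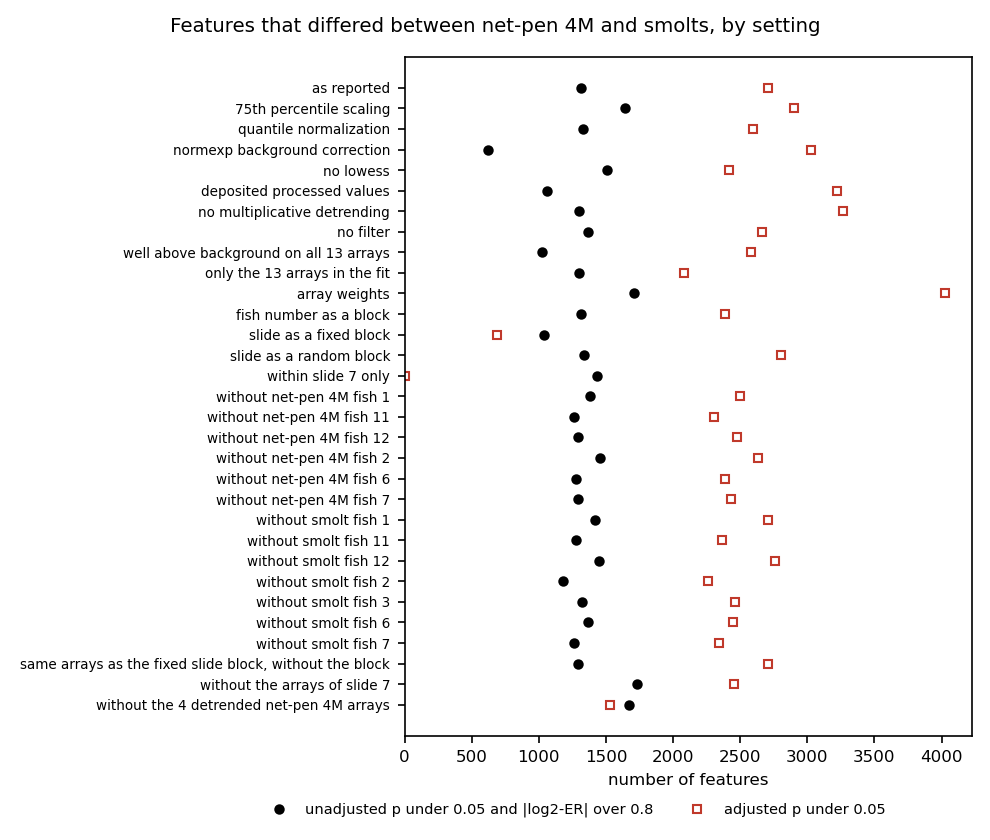
Number of features that differed between net-pen 4M and smolts (horizontal axis) under each alternative, by the criteria of an unadjusted p under 0.05 and log2-ER beyond 0.8 (circles) and by an adjusted p under 0.05 (squares). The circles lie between 619 and 1728 and the squares between 2 and 4026, with the lowest squares at slide as a fixed block (685) and at slide 7 alone (2).

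The share of features called differed with brightness, and in a different way by each of the 2 rules. In the dimmest quartile of features, with geometric mean signals from 3.28 to 45.2, 11.6% had an adjusted p under 0.05, and in the brightest quartile, from 644 upwards, 24.2% did. The median SD between fish fell over the same quartiles from 0.50 to 0.24 in smolts and from 0.38 to 0.32 in net-pen 4M. By the criteria 10.9% were called in the dimmest quartile, and 8.50%, 9.14% and 8.61% in the second, the third and the brightest, with no steady trend. Over all features the median SD was 0.33 in both groups.

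Probes designed on salmon sequences (prefix Ssa) and on rainbow trout sequences (prefix Omy) were both called. By the criteria 1221 of 12957 Ssa features (9.42%) and 96 of 1215 Omy features (7.90%) differed between net-pen 4M and smolts. The Omy features were dimmer, with a median signal of 84.8 against 180, and the part of brightness in this difference was not tested.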

How the data were processed

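Total RNA of skin was labelled with Cy3 and hybridized to a 15 k Atlantic salmon oligonucleotide array, one fish per array. The authors deposited the Agilent Feature Extraction 12.0.1.1 output of each array, whose processed signal is an intensity after background subtraction, divided on 7 of 31 arrays by a spatial trend. They also deposited a table of intensities in which each column equals the median signal minus local background times a constant. Groups and fish numbers came from the titles.

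Of 15377 spots, 536 were controls. A feature was kept where 50% or more of the arrays in some group read it as well above background (14172 of 14841), and 145 values of spots marked by the software as uneven or deviant were dropped. Signals below 1 were set to 1. As in the methods of the study, every array was brought to the same mean, features were expressed relative to their own mean across 31 arrays, and log2 ratios were corrected by lowess (span 0.3). A normalised signal is this ratio times the feature's mean. One limma 3.58.1 fit (R 4.3.3) of 5 groups gave two-sided p-values, adjusted by Benjamini-Hochberg over all features. A feature that was well above background on no array of a group was given a bound against the lowest signal well above background on each array. That signal is not a strict limit of detection, so the bound is approximate. Where only some arrays of a group were well above background, the measured log2-ER was given. The number of arrays limits the precision.

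The comparison, lists, criteria and naming rule were chosen with earlier results of these data known. The rule took the 10 highest and 10 lowest log2-ER among features with an adjusted p under 0.05, a log2-ER beyond 0.8 and no overlap between fish, the 5 largest statistics in each direction and the 3 largest spreads among net-pen 4M fish, in all 33 features. Lists of genes and cell type markers could not be applied. Alternatives were other scalings, background correction, filters, samples in the fit, array weights, fish number or slide as a block, and leaving out each fish. Leaving out slide 7 or the 4 spatially corrected net-pen 4M arrays, the arrays of the slide block without the block, and all alternatives for the differences of net-pen 4M from the other seawater groups were chosen after seeing the data. Normexp (offset 50) used the median signal in place of the planned mean signal. On simulated data of 14172 features with 200 changed, 79 of 100 changes of 1 on the log2 scale and 99 of 100 changes of 2 were called by the criteria, with 106 unchanged features, and 73 and 90 by adjusted p, with 13 unchanged. Python 3.11.15, numpy 2.4.6, pandas 2.3.3 and matplotlib 3.10.9 were used for tables and figures.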

Additional observations from a re-analysis of the deposited data

Results flagged for a closer look

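At 7 of 72 groups of values examined, the highest or lowest fish stood far from the others of its group. The features were chosen on the same fish and some move together. The 3.6 expected at 1 in 20 therefore gives no measure for this count. Smolt 1 was high at Ssa#GRASP209734281, with a normalised signal of 202 against 5.39 to 18.0 in the other smolts, and low at the seventh highest feature, with 13.1 against 29.0 to 43.6. Smolt 12 was low at the eighth lowest feature, with 1138 against 1896 to 2444, and at the tenth lowest, with 36.1 against 58.2 to 76.7. These 2 smolts accounted for all such values among smolts, and the array of smolt 1 was the dimmest of both groups.

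In net-pen 4M, fish 2 was high at the feature with the third largest statistic among the higher ones, with 4715 against 3041 to 3554. Fish 6 was low at the fourth of the lower ones, with 204 against 352 to 404. Fish 7 was low at the feature with the third largest spread, with 4.42 against 142 to 301.

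Of the 33 chosen features, 13 differed between net-pen 4M and net-pen 1M at an adjusted p under 0.05 in the limma fit, where 7.81% of all features did. The features were chosen on the same net-pen 4M fish, and no slide held both groups. The log2 difference was 5.92 at the highest feature, 2.33 at the fourth, 3.95 at the fifth, 4.42 at the sixth, 1.71 at the seventh, 1.61 at the eighth and 1.72 at the tenth. Among the lowest features it was -2.04 at the fifth, -2.02 at the sixth and -3.18 at the seventh. Among the features with the largest statistics it was 0.86 at the second of the higher ones, and -0.89 and -0.53 at the first and the fifth of the lower ones. In every case net-pen 4M lay farther from smolts than net-pen 1M.

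From S-CCS 4M 11 of the 33 differed, where 7.92% of all features did, and with slide as a fixed block 0 of the 33 differed. The log2 difference was 1.63 and 2.96 at the fifth and the sixth highest features and -2.24 at both the fifth and the sixth lowest. Among the features with the largest statistics it was 0.43, 0.99, 0.97 and 0.54 at the first, the second, the fourth and the fifth of the higher ones, and -1.18, -0.88 and -0.52 at the first, the second and the third of the lower ones. These too lay farther from smolts in net-pen 4M. The first of the higher ones lost the call in 17 of 28 alternatives and the third of the lower ones in 15 of 28. Without net-pen 4M fish 7 the count fell to 7 from net-pen 1M and to 5 from S-CCS 4M, and without fish 11 it fell to 7 from S-CCS 4M.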

How the results depend on the processing

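The direction of the chosen features is no sign of stability. Those ranked by log2-ER were chosen for groups that do not overlap, and those with the largest statistics for that statistic in the same fish. The 3 with the largest spread were chosen among features with an adjusted p under 0.05. The count by the criteria, 1317, became 619 with normexp and ranged from 1183 to 1458 without one fish at a time. The adjusted count, 2704, became 685 with slide as a fixed block, 2 within slide 7 and 1533 without the 4 spatially corrected net-pen 4M arrays, and ranged from 2262 to 2760 without one fish at a time. Only 4 arrays within slide 7 and 2 net-pen 4M fish without the corrected arrays entered those fits, and the cause of the other shifts was not tested. Of the chosen features, 32 of 33 lost an adjusted p under 0.05 within slide 7, 8 with the fixed slide block and 3 without the corrected arrays. The number that differed from net-pen 1M, 13, became 8 among the 21 chosen features well above background on all 13 arrays, and ranged from 7 to 12 without one net-pen 4M fish or smolt at a time. The number that differed from S-CCS 4M, 11, became 0 with the fixed slide block, 5 over the same arrays without it and 7 without the corrected arrays, and ranged from 5 to 12 likewise. The fish on the other side of these differences were not left out in turn. With the fish number as a replicate block the counts were 1313 and 2388. Fish of the same number did not deviate together, with r from -0.16 to 0.32 and 0 of 6 closest to their own number, so the numbers do not pair the fish. Leaving out one fish lost an adjusted p under 0.05 only at the feature with the largest spread (without net-pen 4M fish 6) and at the third by spread (without net-pen 4M fish 7, or smolt 1, 7 or 12). In dim features the spread was wider, with a median SD of 0.50 in smolts and 0.38 in net-pen 4M in the dimmest quartile, against 0.24 and 0.32 in the brightest.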
